A study of Rattus norvegicus with 8 samples.

Results

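The measurements are of 74 genes of heat shock proteins, chaperones and the response to stress of the endoplasmic reticulum (ER), in the spinal cord of rats with experimental autoimmune encephalomyelitis (EAE). They were chosen by gene symbol, as the transcript clusters with a single symbol of the Hspa, Hspb, Hspe, Hsph, Hsf, Dnaj, Bag, Cct, Fkbp, Ppi, Pdia, Ero1, Herpud, Edem, Sel1l, Derl, Sec61 or Ddit families, together with P4hb, Calr, Calr3, Canx, Hyou1, Xbp1 and Stip1. The choice was made with earlier results of these data known. A transcript cluster is the group of probe sets that stands for a gene. The 74 clusters belong to 74 different genes, out of 8793 clusters in all, of which 7603 have a single symbol. EAE is an inflammatory disease of the central nervous system that follows immunisation with a myelin antigen. The 4 rats with MBP-EAE were virgin female Lewis rats given 50 µg of myelin basic protein (MBP) in incomplete Freund's adjuvant with Mycobacterium butyricum, and the 4 healthy controls were untreated littermates of the same sex and strain. All cords were taken on day 13, and each rat was measured on 1 exon array. The labels give the age as 16 weeks and the methods a younger one, and the MBP is from guinea pig in the labels and recombinant in the methods. The controls received neither MBP nor adjuvant, so that the effects of the 2 cannot be told apart.

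Proteins that enter the secretory pathway are threaded into the ER through the Sec61 channel, folded by lectins, Hsp70-type chaperones and disulfide isomerases, and sent for degradation when folding fails. When unfolded proteins build up, sensors in the ER membrane start the unfolded protein response, in which the factors Xbp1, Atf6 and Atf4 induce chaperones and, under lasting stress, the death-promoting factor Ddit3 (CHOP). In the cytosol a separate programme, the heat shock response, is driven by Hsf factors. The unfolded protein response is well known in cells that secrete much protein, such as plasma cells and activated phagocytes. It is also known in oligodendrocytes, which make large amounts of myelin protein.

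Array medians lay between 4.94 and 5.08 (log2) in both groups, and the array of healthy rat 195 had the narrowest interquartile range (2.23, against 2.61 to 2.93 on the other healthy arrays). Rat 195 had the lowest healthy value for 30 of the 74 members, or 40.5%, against 29% of all clusters. Markers of spinal cord cells were present in both groups, with mean log2 values of 9.23 to 9.97 on the healthy arrays for the lists of oligodendrocyte and neurone genes. In MBP-EAE all 7 measured markers of monocytes and macrophages were higher, with a mean log2 value of 5.10 to 5.38 in healthy rats and 8.36 to 8.75 in MBP-EAE rats. All 5 measured T cell markers were higher (6.06 to 6.28 against 3.99 to 4.40), as were 2 of 5 genes of dividing cells and 3 of 6 astrocyte markers, while 6 of 9 oligodendrocyte markers and 3 of 7 neurone markers were lower. Among the T cell markers Cd4 rose most (3.56 on the log2 scale, against 0.82 to 2.29 for the others). The paper cites work on CD4 on microglia in this model, so that Cd4 does not mark T cells alone. Of B cell and plasma cell markers only Cd79b and Sdc1 were measured, of which Cd79b was higher, and the 2 measured endothelial markers were not called. The healthy means of Ccr2, Cd14, Cd2, Cd3d, Ccnb1 and Cdk1 lay under the lower quartile of all cluster means. For Cdk1 this held in MBP-EAE too. In whole cord, a change in the number of cells of a type and a change in RNA per cell cannot be told apart, and the part of these cell types in the values below was not tested.

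Among the 74 members, 14 were up-regulated and 9 down-regulated in MBP-EAE (limma, with p-values adjusted over all clusters and a threshold of 0.05). That is 18.9% and 12.2% of the members, against 11.3% and 14.6% of all clusters, and 31.1% in either direction against 25.9%. Brighter clusters were called more often. With clusters under the lower quartile left out, 25 of 69 members were called, a share similar to the 36.6% of all clusters. With those under the median left out, 23 of 61 members were called, a lower share than the 45.6% of all clusters. Of these members 15 were higher and 8 lower, against 839 and 1166 of 4397 clusters. The changes were modest, with up-regulation of 1.32-fold to 2.49-fold and down-regulation of 1.32-fold to 1.66-fold. The 4 MBP-EAE values lay above the 4 healthy values for 20 members (27%, against 12% of all clusters) and below them for 13 (17.6%, against 17.3%). These shares of all clusters, and those given for each role below, cover bright and dim clusters alike and were not matched for brightness. The median log2 fold change of the members was -0.01, and that of all clusters -0.10. The other 51 members had log2 fold changes between -0.33 and 0.42. After cyclic loess between the arrays, 27 members were higher and 7 lower, which is 79.4% higher among those called against 60.9% with the values as deposited. Among all called clusters the share of higher ones was 58.1% after cyclic loess and 43.7% as deposited.

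**Figure D1:**
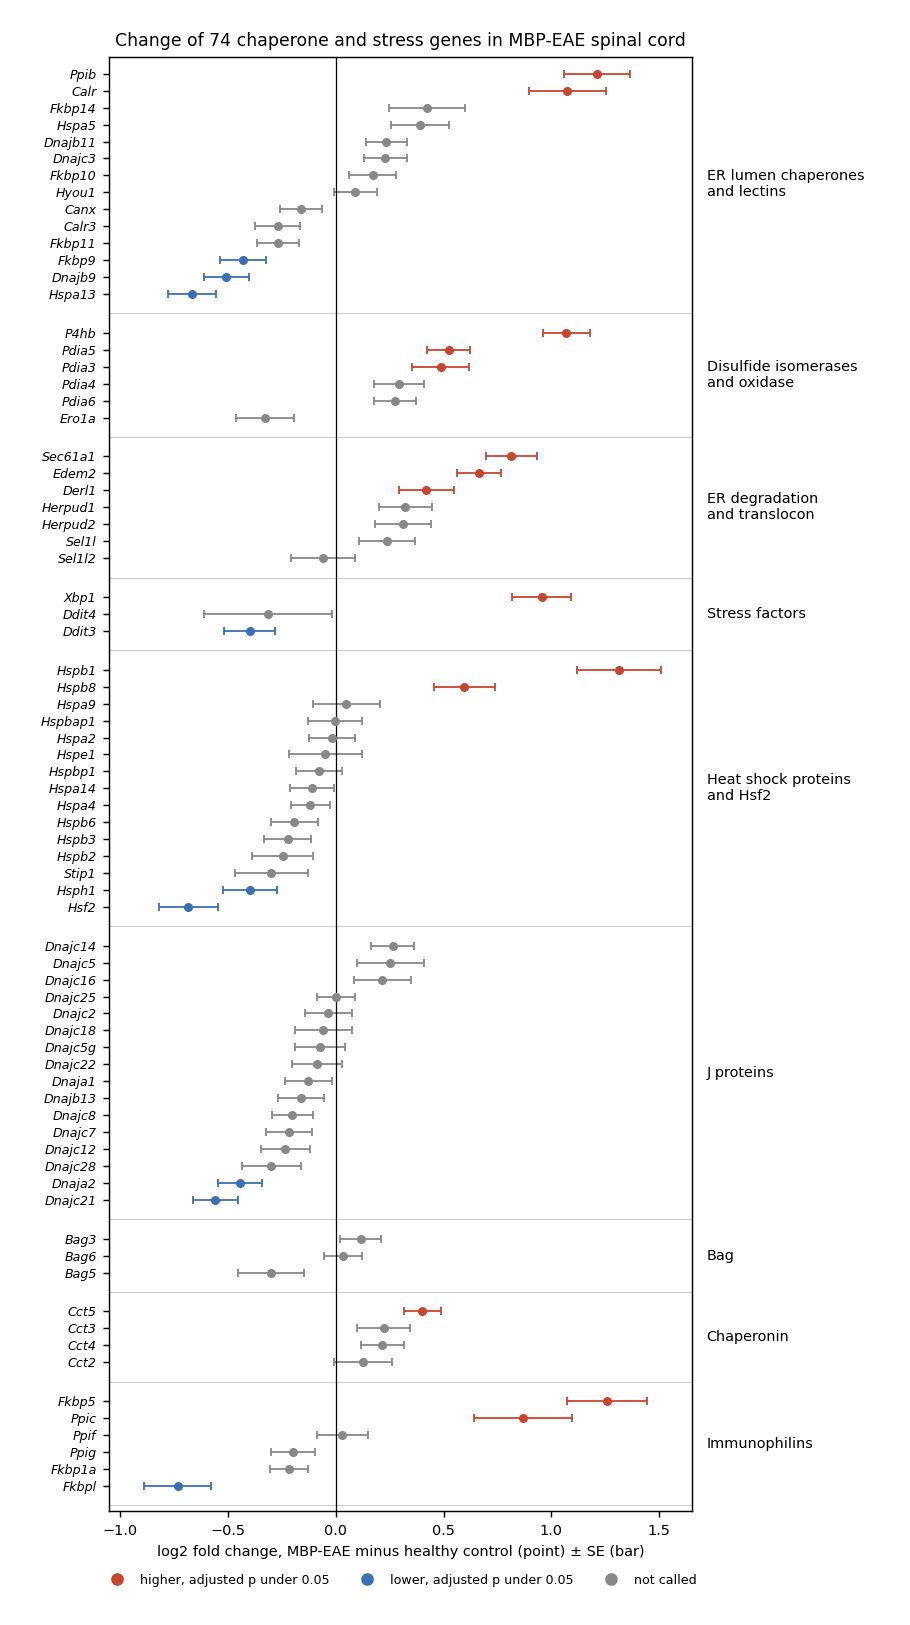
Log2 fold change of each of the 74 members (points, MBP-EAE minus healthy control, 4 rats in each group) with its SE from limma (bars), ordered by role. Of the ER lumen group 8 of 14 members lie to the right of 0, as do 5 of 6 disulfide isomerases and oxidases and 6 of 7 members of degradation and translocation, while 12 of 16 J proteins lie to the left.

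**Figure D2:**
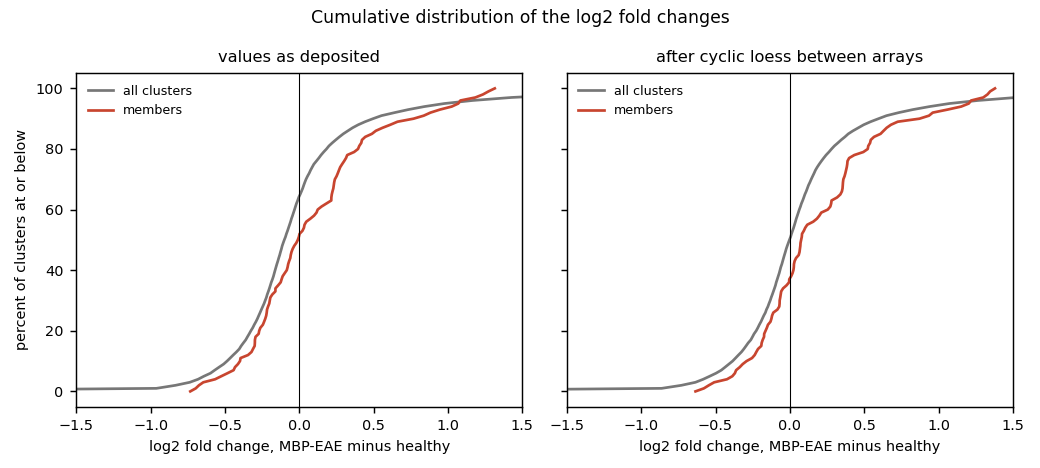
Cumulative distribution of the log2 fold change of the 74 members (red) and of all 8793 clusters (grey), with the values as deposited (left) and after cyclic loess between the arrays (right). The x axis is the log2 fold change, cut at 1.5 in both directions, and the y axis the percent of clusters at or below it. The median of the members was -0.01 and that of all clusters -0.10 as deposited, and 0.08 and -0.00306 after cyclic loess.

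Folding enzymes of the ER were among the members that rose. P4hb encodes protein disulfide isomerase, which makes and rearranges disulfide bonds in new proteins. Its log2 values were 7.65, 7.61, 7.45 and 7.46 in healthy rats 193, 194, 195 and 196, and 8.59, 8.78, 8.39 and 8.68 in MBP-EAE rats 217, 218, 219 and 241. Every MBP-EAE rat was above every healthy rat, and P4hb was 2.10-fold higher (1.07 on the log2 scale, SE 0.11, adjusted p = 6.89e-05). Of the other disulfide isomerases, Pdia3, which works with the lectin chaperones and in the loading of MHC class I, was 1.40-fold higher (SE 0.13 on the log2 scale, adjusted p = 0.0220). Its values were 9.93, 9.88, 9.48 and 10.04 in the healthy rats and 10.45, 10.19, 10.29 and 10.35 in the MBP-EAE rats. The low value was that of rat 195. Pdia3 was not called without rat 217 (adjusted p = 0.0693) or rat 241 (adjusted p = 0.0566). Pdia5 was 1.44-fold higher, with means over 4 rats of 4.43 (SD 0.12) in healthy controls and 4.96 (SD 0.08) in MBP-EAE (adjusted p = 0.00321). Pdia4 and Pdia6 had log2 fold changes of 0.29 (SE 0.12, adjusted p = 0.0943) and 0.28 (SE 0.10, adjusted p = 0.0629). Their groups did not overlap either, but they did not pass the threshold. Pdia6 passed it under 5 of the 19 alternatives, among them without rat 241 (adjusted p = 0.0434) and after cyclic loess (adjusted p = 0.0265). Pdia4 passed it by limma with array weights (adjusted p = 0.0420) and after cyclic loess (adjusted p = 0.0260). The oxidase Ero1a, which recharges protein disulfide isomerase, had a log2 fold change of -0.33 (SE 0.14, adjusted p = 0.106). Without rat 195 Ero1a was called lower (log2 fold change -0.42, adjusted p = 0.0280). In all, 3 of the 6 members of this group were higher, against 11.3% of all clusters, and the other 3 were not called.

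Of the 14 chaperones and lectins of the ER lumen, 2 were also up-regulated, a share near the 11.3% of all clusters. Ppib, the ER cyclophilin that turns peptide bonds before proline, had log2 values of 7.45, 7.05, 6.67 and 6.85 in healthy rats 193, 194, 195 and 196, and 8.22, 8.20, 8.18 and 8.25 in MBP-EAE rats 217, 218, 219 and 241. The MBP-EAE rats lay close together and above the healthy rats, which spread more widely. Ppib was 2.31-fold higher (1.21 on the log2 scale, SE 0.15, adjusted p = 0.000286). Calr encodes calreticulin, the soluble lectin chaperone for glycoproteins and a member of the complex that loads MHC class I. Its values were 8.64, 8.34, 7.75 and 8.20 in the healthy rats and 9.57, 9.21, 9.23 and 9.21 in the MBP-EAE rats. Rat 195 was the lowest healthy rat and rat 217 the highest MBP-EAE rat, and the groups did not overlap. Calr was 2.10-fold higher (1.07 on the log2 scale, SE 0.18, adjusted p = 0.00170), and 1.88-fold higher without rat 195 (adjusted p = 0.00100). Its membrane-bound relative Canx (calnexin) had a log2 fold change of -0.16 (SE 0.10, adjusted p = 0.274), with values of 11.34 to 11.59 in healthy controls and 11.22 to 11.45 in MBP-EAE.

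Hspa5 encodes BiP, the Hsp70 of the ER and the standard marker of the unfolded protein response. Healthy rats 193, 194, 195 and 196 had log2 values of 10.17, 10.09, 9.87 and 10.05, and MBP-EAE rats 217, 218, 219 and 241 had 10.50, 10.20, 10.75 and 10.29. The groups did not overlap, but rats 218 and 241 lay close to the healthy range, and the 1.31-fold difference did not pass the threshold (0.39 on the log2 scale, SE 0.13, adjusted p = 0.0567). It lay on the other side of the threshold under 8 of the 19 alternatives, among them without rat 218 (log2 fold change 0.47, adjusted p = 0.0388) and after cyclic loess (0.54, adjusted p = 0.00932). Hyou1, which releases nucleotide from BiP, had values of 4.96 to 5.13 in healthy controls and 5.02 to 5.32 in MBP-EAE, and the groups overlapped (0.09 on the log2 scale, SE 0.10, adjusted p = 0.552). The BiP co-chaperones Dnajc3 (0.23, SE 0.10, adjusted p = 0.123) and Dnajb11 (0.23, SE 0.10, adjusted p = 0.102) were not called. Dnajc3 was called higher by limma with array weights (adjusted p = 0.0480) and after cyclic loess (adjusted p = 0.0289).

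The ER lumen group also held 3 members, of 14, that were down-regulated, against 14.6% of all clusters. Hspa13 encodes an Hsp70-like protein of microsomes. Its log2 values were 8.60, 8.74, 8.75 and 8.89 in healthy rats 193, 194, 195 and 196, and 8.14, 8.18, 7.84 and 8.16 in MBP-EAE rats 217, 218, 219 and 241. All MBP-EAE rats lay below the healthy rats, and Hspa13 was 1.59-fold lower (-0.67 on the log2 scale, SE 0.11, adjusted p = 0.00167). Dnajb9 encodes ERdj4, a J protein that brings BiP to misfolded proteins and that is usually induced through Xbp1. Its values were 8.55, 8.52, 8.80 and 8.68 in the healthy rats and 8.22, 8.14, 7.96 and 8.22 in the MBP-EAE rats. The groups did not overlap, and Dnajb9 was 1.42-fold lower (-0.51 on the log2 scale, SE 0.10, adjusted p = 0.00557). Fkbp9, a prolyl isomerase of the ER, was 1.35-fold lower, with group means of 5.77 (SD 0.14) and 5.34 (SD 0.12), n = 4 each (adjusted p = 0.0142). The other Fkbp members of the ER lumen group, Fkbp10, Fkbp11 and Fkbp14, did not pass the threshold. Of these Fkbp14 had the largest difference (0.42 on the log2 scale, SE 0.17, adjusted p = 0.106).

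The 7 members of ER-associated degradation and translocation included 3 that were higher, against 11.3% of all clusters, and the other 4 were not called. Sec61a1 encodes the pore of the Sec61 channel. Healthy rats 193, 194, 195 and 196 had log2 values of 7.51, 7.23, 7.02 and 7.20, and MBP-EAE rats 217, 218, 219 and 241 had 8.07, 8.18, 7.98 and 7.98. Sec61a1 was 1.76-fold higher without overlap between the groups (0.81 on the log2 scale, SE 0.12, adjusted p = 0.000671). Edem2 starts the trimming of mannose that marks misfolded glycoproteins for degradation. It was 1.58-fold higher, with values of 5.25 to 5.43 in healthy controls and 5.88 to 6.13 in MBP-EAE (adjusted p = 0.00101). Derl1, a membrane protein through which misfolded proteins leave the ER, was 1.34-fold higher (0.42 on the log2 scale, SE 0.13, adjusted p = 0.0367). It was the only one of the 14 up-regulated members whose groups overlapped, with 6.90 in healthy rat 195 and 6.85 in MBP-EAE rat 241. The call of Derl1 was lost when rat 193, 194, 196, 217, 218 or 219 was left out (adjusted p from 0.0708 to 0.0987). Herpud1, a stress-induced part of the degradation complex, had values of 5.25, 5.25, 5.69 and 5.21 in the healthy rats and 5.76, 5.70, 5.57 and 5.67 in the MBP-EAE rats. Rat 195 stood within the MBP-EAE range (0.32 on the log2 scale, SE 0.12, adjusted p = 0.0813). Without that rat the log2 fold change of Herpud1 was 0.44 (adjusted p = 0.00513). Sel1l, the scaffold of the same complex, had a log2 fold change of 0.24 (SE 0.13, adjusted p = 0.213).

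Among the members, the 2 transcription factors of the ER stress response, Xbp1 and Ddit3, moved in opposite directions. Atf3 and Atf4, which lie outside these families, are given below. Xbp1 is made active when the sensor Ire1 splices its mRNA, which an array value for the whole gene does not show. Its log2 values were 6.94, 7.12, 6.69 and 6.99 in healthy rats 193, 194, 195 and 196, and 8.14, 7.81, 7.62 and 7.98 in MBP-EAE rats 217, 218, 219 and 241. Every MBP-EAE rat was above the healthy rats, and Xbp1 was 1.94-fold higher (0.96 on the log2 scale, SE 0.14, adjusted p = 0.000662). Ddit3 (CHOP) had values of 5.45, 5.38, 5.79 and 5.45 in the healthy rats and 5.29, 5.16, 4.97 and 5.06 in the MBP-EAE rats. Here the MBP-EAE rats lay below the healthy rats, by 1.32-fold (-0.40 on the log2 scale, SE 0.12, adjusted p = 0.0332). The call of Ddit3 was lost when rat 196, 218, 219 or 241 was left out (adjusted p from 0.0609 to 0.0894). Ddit4, which restrains growth signalling under stress, ranged from 3.76 to 5.49 in healthy controls and from 4.14 to 4.33 in MBP-EAE (adjusted p = 0.487).

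**Figure D3:**
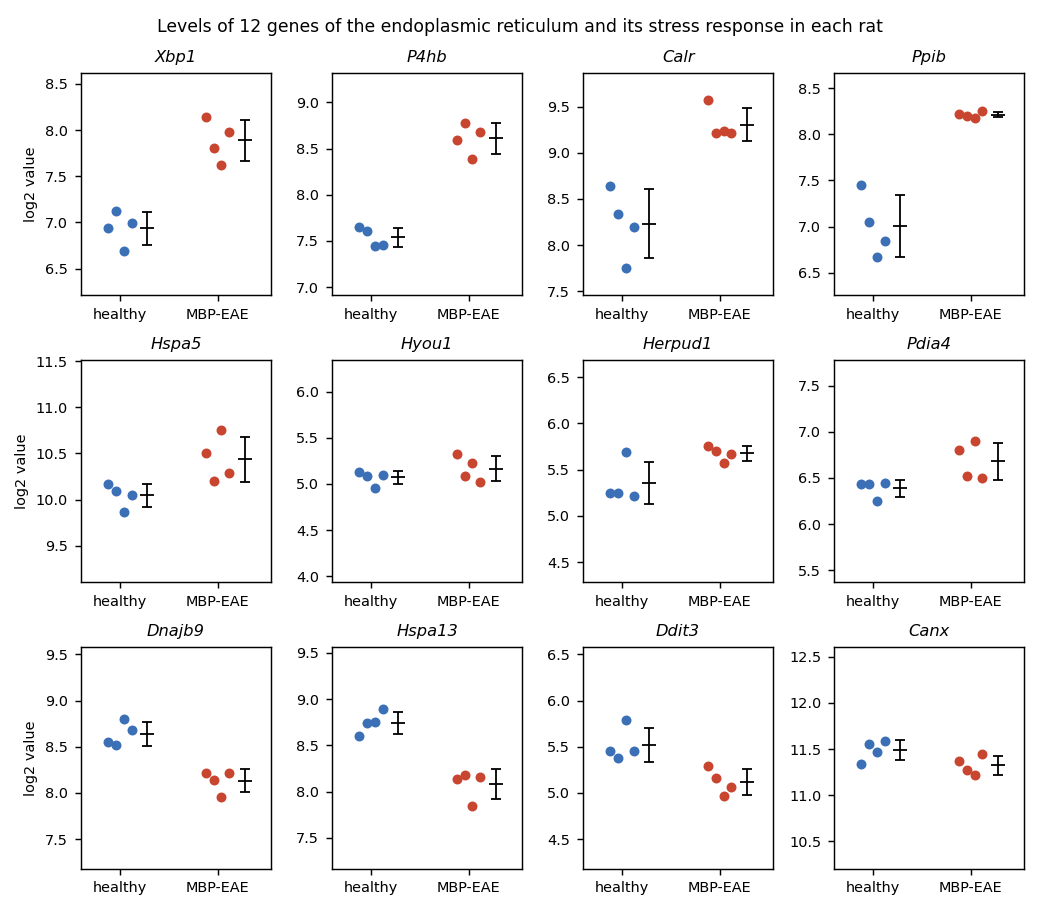
Log2 values of 12 genes of the ER and its stress response in each healthy rat (blue) and each MBP-EAE rat (red), with group means and SD (black, n = 4). Every panel spans the same number of log2 units. Xbp1, P4hb, Calr and Ppib are higher without overlap, Dnajb9, Hspa13 and Ddit3 lower without overlap, and Hyou1 and Canx overlap.

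Upstream sequence was available for 62 of the 74 members (64 windows from RefSeq, build GRCr8, each of 250 bases before and 50 after a transcription start). The ER stress response element, bound by Atf6 with NF-Y, is shown because genes that hold it gave different results. It was searched on both strands as CCAAT followed, after 9 bases of any kind, by CCACG. It was found in 5 member windows (7.81%) and in 22 of all 33469 windows (0.0657%). The element was first described in genes of this kind, so that the difference in shares is no finding. The stretches below run 5′ to 3′ towards the start site, with the element in capitals (in Calr it lies on the opposite strand).
Calr, chr19:40213117-40213173, plus strand: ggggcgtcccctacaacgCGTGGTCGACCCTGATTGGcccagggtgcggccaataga
Xbp1, chr14:84604538-84604596, plus strand: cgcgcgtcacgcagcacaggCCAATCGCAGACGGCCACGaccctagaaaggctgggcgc
Hspa5, chr3:38452953-38453011, plus strand: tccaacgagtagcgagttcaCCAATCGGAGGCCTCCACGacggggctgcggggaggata
Dnajc3, chr15:102432514-102432572, plus strand: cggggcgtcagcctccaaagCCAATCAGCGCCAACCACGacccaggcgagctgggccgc
Canx, chr10:35158049-35158107, minus strand: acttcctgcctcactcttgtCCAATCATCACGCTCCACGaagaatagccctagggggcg
Of these 5 genes Calr and Xbp1 were up-regulated, and Hspa5, Dnajc3 and Canx did not pass the threshold, with log2 fold changes from 0.39 to -0.16. This contrast depended on the processing. Hspa5 and Dnajc3 were called higher by limma with array weights (adjusted p = 0.0170 and 0.0480) and after cyclic loess (adjusted p = 0.00932 and 0.0289). Canx was called under none of the 19 alternatives. A second form of the element, ATTGG and CCACG with 1 base between them on either strand, was found in windows of Dnajb11, Herpud1 and Hyou1 (4.69% of member windows, 0.0508% of all). For this form too the difference in shares is no finding. None of Dnajb11, Herpud1 and Hyou1 was called as deposited without array weights. Herpud1 was called higher by limma with array weights (adjusted p = 0.00226) and after cyclic loess (adjusted p = 0.0413). Hyou1 was called under none of the 19 alternatives. The stretches of Herpud1 and Hyou1 are given for comparison, with the second form in capitals (on the opposite strand in Hyou1).
Herpud1, chr19:10614801-10614851, minus strand: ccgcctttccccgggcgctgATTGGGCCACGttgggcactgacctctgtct
Hyou1, chr8:53602674-53602824, plus strand: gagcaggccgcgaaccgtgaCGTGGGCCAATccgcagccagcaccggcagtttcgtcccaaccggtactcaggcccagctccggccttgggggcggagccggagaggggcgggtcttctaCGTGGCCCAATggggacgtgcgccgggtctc
Hyou1 thus held 2 copies in the window, beside a log2 fold change of 0.09. No match in a window says only that these letters are not there.

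Among the 15 heat shock proteins and Hsf factors outside the ER, the small heat shock proteins Hspb1 and Hspb8 were higher and Hsf2 and Hsph1 lower. These 4 of 15 are a share close to the 25.9% called among all clusters. A log2 fold change below 0 was found for 12 of the 15, and for 5667 of all 8793 clusters. Hsf1, Hspa8, Hspd1, Hspa1a and Hspa1b had no cluster with a single symbol here, so that these heat shock genes were not assessed. Hspb1 (Hsp27) holds unfolded proteins in solution and binds actin and intermediate filaments, and is made by reactive astrocytes, among other cells. Healthy rats 193, 194, 195 and 196 had log2 values of 4.99, 4.74, 4.82 and 5.50, and MBP-EAE rats 217, 218, 219 and 241 had 5.96, 6.21, 6.51 and 6.63. Healthy rat 196 was the highest of its group and still lay below every MBP-EAE rat. The rise of Hspb1, at 2.49-fold, was the largest among the 74 members (1.32 on the log2 scale, SE 0.19, adjusted p = 0.000816). Hspb8 works with Bag3 to send misfolded proteins to autophagy. It was 1.51-fold higher, with group means of 5.68 (SD 0.24) and 6.28 (SD 0.18), n = 4 each (adjusted p = 0.0115), while Bag3 had a log2 fold change of 0.12 (SE 0.09, adjusted p = 0.411). The 6 measured astrocyte markers went both ways in the same cords. Gfap (0.69 on the log2 scale), Gja1 (0.69) and Slc1a3 (1.15) were higher, and Aqp4 (-0.18), S100b (-0.38) and Slc1a2 (-0.51) were not called. The mean log2 value of the list was 9.34 to 10.11 in healthy rats and 9.79 to 10.19 in MBP-EAE rats, and its part in the rise of Hspb1 was not tested. The small heat shock proteins Hspb2, Hspb3 and Hspb6 had log2 fold changes of -0.25 to -0.19 and were not called.

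Hsf2, a transcription factor of the heat shock family, was lower in MBP-EAE. Its log2 values were 7.73, 7.85, 8.11 and 8.34 in healthy rats 193, 194, 195 and 196, and 7.24, 7.32, 7.29 and 7.43 in MBP-EAE rats 217, 218, 219 and 241. The groups did not overlap, and Hsf2 was 1.61-fold lower (-0.68 on the log2 scale, SE 0.14, adjusted p = 0.00468). Hsph1 (Hsp110), which releases nucleotide from Hsp70 and is itself strongly induced by heat, was 1.32-fold lower (-0.40 on the log2 scale, SE 0.13, adjusted p = 0.0432). Its values were 9.31, 9.30, 9.35 and 9.56 in the healthy rats and 9.17, 8.77, 9.18 and 8.81 in the MBP-EAE rats. The call of Hsph1 was lost when rat 193, 194, 195, 196, 218 or 241 was left out (adjusted p from 0.0503 to 0.123). Hspe1, the co-chaperonin of mitochondria (-0.05, SE 0.17, adjusted p = 0.869), and the mitochondrial Hsp70 gene Hspa9 (0.05, SE 0.15, adjusted p = 0.854) were not called. Hspa2 and Hspa4 had log2 fold changes of -0.02 and -0.12. The heat shock element, which Hsf factors bind, was searched on either strand as GAA, TTC and GAA with 2 bases between each, and was found in windows of Cct4, Dnaja1, Hspe1 and Hsph1 (6.25% of member windows, 0.798% of all). The members were chosen by the names of heat shock and related genes, so that the difference in shares is no finding. The stretches of Hsph1 and Hspe1, which lie before the start site, are shown with the element in capitals (on the opposite strand in Hsph1). In Hspe1 2 matches overlap.
Hsph1, chr12:10427312-10427364, plus strand: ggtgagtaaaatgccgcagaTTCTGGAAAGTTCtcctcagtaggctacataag
Hspe1, chr9:64084242-64084299, plus strand: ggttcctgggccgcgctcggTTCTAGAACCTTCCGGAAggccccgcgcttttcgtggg
The log2 fold changes of these 4 genes were -0.40 for Hsph1, -0.13 for Dnaja1, -0.05 for Hspe1 and 0.22 for Cct4. None of the 4 was called higher, against 11.3% of all clusters. The values of Cct4 were 7.96 to 8.25 in healthy controls and 8.27 to 8.44 in MBP-EAE, without overlap (adjusted p = 0.144). With only 4 genes the counts say little, and the activity of Hsf factors was not tested.

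J proteins bring substrates to Hsp70 and start its ATPase. Of the 16 members outside the ER list, 2 were lower, a share near the 14.6% of all clusters, and 12 had a log2 fold change below 0, against 5667 of all 8793 clusters. None was called higher, against 11.3% of all clusters (1 had an unadjusted p under 0.05 and a positive sign, while array weights called 1 higher and cyclic loess 2). Dnajc21, which acts in the maturation of ribosomes, was 1.47-fold lower (-0.56 on the log2 scale, SE 0.10, adjusted p = 0.00319). All 4 MBP-EAE rats, with a highest value of 9.19, lay below the healthy rats, whose values were 9.51 to 9.82. Dnaja2, a co-chaperone of cytosolic Hsp70, was 1.36-fold lower (adjusted p = 0.0105), its mean over 4 rats going from 8.84 (SD 0.11) to 8.39 (SD 0.13). The 4 measured subunits of the chaperonin that folds actin and tubulin all had positive log2 fold changes, from 0.13 to 0.40. Of the 4, 1 was called, or 25%, against 25.9% of all clusters. That subunit gene, Cct5, had values of 9.28 to 9.33 in healthy controls and 9.60 to 9.77 in MBP-EAE (1.32-fold, adjusted p = 0.00627). After cyclic loess 3 of the 4 were called. The 3 Bag co-chaperones were not called, and none had an unadjusted p under 0.05. Bag5 had a log2 fold change of -0.30 (adjusted p = 0.189), and -0.45 (adjusted p = 0.0243) without MBP-EAE rat 219, which at 7.91 had the highest value of its group.

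Immunophilins are prolyl isomerases that also bind immunosuppressant drugs, and several are partners of Hsp90. Fkbp5 encodes an Hsp90 partner that lowers the affinity of the glucocorticoid receptor for its hormone, and is itself a well-known glucocorticoid-induced gene. Healthy rats 193, 194, 195 and 196 had log2 values of 4.70, 5.23, 5.48 and 5.31, and MBP-EAE rats 217, 218, 219 and 241 had 6.74, 6.18, 6.26 and 6.58. The groups did not overlap. Fkbp5 was 2.39-fold higher (1.26 on the log2 scale, SE 0.19, adjusted p = 0.000786). Ppic, a cyclophilin of the secretory pathway, was 1.83-fold higher with a wide spread in both groups, with group means of 5.35 (SD 0.33) and 6.22 (SD 0.44), n = 4 each (adjusted p = 0.0190). Ppic was not called without rat 196 (adjusted p = 0.0567). Fkbpl, a distant relative that binds Hsp90, was 1.66-fold lower (-0.73 on the log2 scale, SE 0.16, adjusted p = 0.00654). Its values in MBP-EAE were 3.91, 3.36, 3.22 and 3.68, with a mean under the lower quartile of all cluster means in that group, so that the size of the fall is uncertain. Fkbp1a, the target of tacrolimus, had a log2 fold change of -0.22 (SE 0.09, adjusted p = 0.0984).

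**Figure D4:**
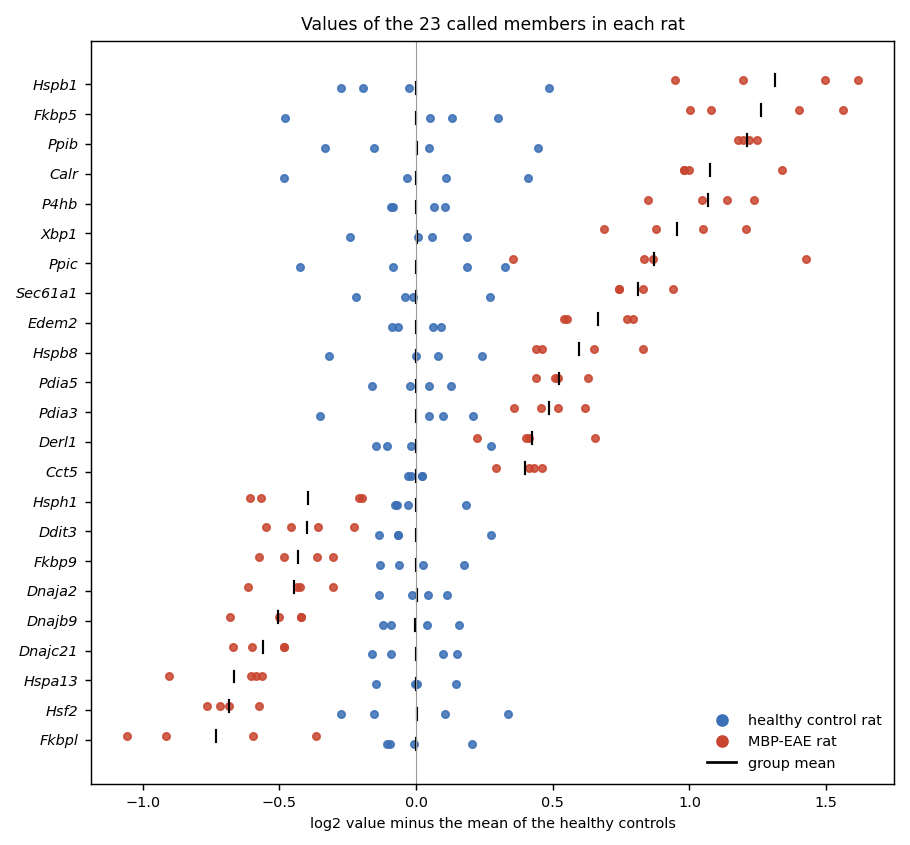
Values of the 23 members called in MBP-EAE, each as log2 value minus the mean of the healthy controls (x axis), for 4 healthy rats (blue) and 4 MBP-EAE rats (red), with group means (black bars). Derl1 is the only one of the 23 whose groups overlap, and Hspb1, Fkbp5 and Ppib show the largest differences.

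Healthy rat 195 had the lowest healthy value for 8 of the 14 up-regulated members (P4hb, Hspb8, Xbp1, Calr, Cct5, Pdia3, Sec61a1 and Ppib). Without that rat all 8 were still called, at 1.29-fold to 2.14-fold, against 1.32-fold to 2.31-fold with it. Leaving out each rat in turn, 12 to 15 members were higher and 7 to 10 lower. Of the 23 members called, 18 were called whichever rat was left out. Within the MBP-EAE group the lowest value of a member belonged to rats 217, 218, 219 and 241 for 9, 26, 26 and 13 of the 74 members. That is 12.2%, 35.1%, 35.1% and 17.6% of the members, against 23.6%, 25.9%, 24.3% and 26.2% of all clusters.

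Of a list of 78 other genes of the same pathways, outside these families, 35 had a cluster of their own, and 10 of the 35 were called, which is near the 25.9% of all clusters. All 10 were higher in MBP-EAE and none lower by limma, against 11.3% and 14.6% of all clusters (13 and 1 at an unadjusted p under 0.05, while array weights called 2 lower), with a median log2 fold change of 0.01. The number higher was 6 without rat 196 or without rat 241. Ssr4, a subunit of the complex that sits beside the Sec61 channel, was lowest at 6.22 in healthy rat 196, and had log2 values of 7.25, 7.65, 7.11 and 7.37 in MBP-EAE rats 217, 218, 219 and 241, all above the healthy rats. It was 1.81-fold higher (0.85 on the log2 scale, SE 0.14, adjusted p = 0.00142). The stress factor Atf3 was 1.54-fold higher (adjusted p = 0.00691), from a mean of 3.63 in healthy controls that lay under the lower quartile of all cluster means. Clu, a secreted chaperone, was 1.49-fold higher (adjusted p = 0.00572). The transcription factor gene Cebpb was 1.47-fold higher (adjusted p = 0.00180), and Uggt1, which senses misfolded glycoproteins and returns them to calreticulin and calnexin, was 1.45-fold higher (adjusted p = 0.00391). Hsp90b1, the Hsp90 of the ER, had values of 11.02 to 11.23 in healthy controls and 11.01 to 11.29 in MBP-EAE (log2 fold change -0.01, adjusted p = 0.961), and its cytosolic relative Hsp90ab1 had a log2 fold change of 0.01 (adjusted p = 0.959). Atf4 had a log2 fold change of 0.42 (SE 0.17, adjusted p = 0.0942).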

How the data were processed

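RNA from 8 spinal cords was hybridised to Affymetrix Rat Exon 1.0 ST arrays, 1 array for each rat. The authors used Partek for RMA background correction (adjusted for probe GC), quantile normalization and a mean over each gene's core probe sets, and deposited log2 values of 8793 transcript clusters. Their processing notes name Expression Console, RMA, Partek and the build rn4. Gene symbols came from the platform table (1 symbol for 7603 clusters, several for 409, none listed for 781). Probe sets of near-identical genes can bind each other's transcripts, and clusters with several symbols were tested but not named.

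The deposited values were compared between groups by limma (version 3.58.1, R 4.3.3) without covariates, and Benjamini-Hochberg adjustment covered every cluster, with a threshold of 0.05. The labels give no batch, so that no batch was modelled. The paper reports that its own ANOVA found no significant effect of batch. Rats are separate animals, and the groups share no numbers. The number of arrays limits the precision. For a single value 4 rats against 4 cannot give a two-sided exact permutation p below 0.0286. Alternatives were an intensity trend, Welch's test, an ordinary t-test with equal variances (the study's results name a t test and its methods an ANOVA that also examined batches), array weights, cyclic loess, quantile normalization, median centring, 2 filters on dim clusters, single-symbol clusters alone, a mean over a gene's clusters, and each rat left out in turn. The scripts were tested on simulated data.

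Members, roles, lists of cell markers and of other pathway genes were chosen with earlier results of these data known. Named were 29 genes whatever their result (20 of them measured as members), the 8 largest rises and 8 largest falls among called members, the 2 called members of each role with the largest change, up to 2 called against their role's majority, and 5 other pathway genes. Genes named beyond this rule, such as Derl1 and Bag5, were chosen after their values were seen. Of the 29 genes, Ern1, Edem1, Creld2, Sdf2l1, Hspa8, Hsf1, Hspd1, Ppia and Tcp1 were not measured as members. Promoter windows came from RefSeq (GRCr8), matched by gene ID. The clinical scores, the RT-PCR and the supplementary tables were not analysed here. Figures were drawn with matplotlib 3.10.9.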

Additional observations from a re-analysis of the deposited data

Results flagged for a closer look

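In 76 groups of 4 rats (38 named genes in both groups), 8 had a value far from the other 3 by Dixon's test, which chance gives in about 1 in 20 groups. In 3 of them it was healthy rat 195. Its log2 value was 5.79 for Ddit3 (others 5.38 to 5.45), 5.69 for Herpud1 (others 5.21 to 5.25) and 6.25 for Pdia4 (others 6.43 to 6.44). Among the MBP-EAE rats, Calr was 9.57 in rat 217 (others 9.21 to 9.23), Hspa13 was 7.84 (others 8.14 to 8.18) and Uggt1 was 6.88 (others 6.99 or higher) in rat 219, and Pdia6 was 7.07 in rat 241 (others 7.30 to 7.34). Ssr4 was 6.22 in healthy rat 196 (others 6.55 or higher).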

How the results depend on the processing

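Over 19 alternatives, 16 of the 23 called members stayed on their side of the threshold wherever they were tested, and none of the 23 changed direction. The number of members higher was 27 after cyclic loess against 14, and the number lower 16 with array weights against 9. Leaving out each rat in turn gave 12 to 15 higher and 7 to 10 lower, with a median log2 fold change of -0.02 to 0.02. That median was 0.076 after cyclic loess, -0.049 with arrays centred on their medians, and 0.030 or 0.049 with clusters under the lower quartile or the median left out. Array weights called 5 disulfide isomerases and oxidases against 3, 10 ER lumen members against 5, 5 members of ER degradation and translocation against 3, and 5 J proteins against 2. Cyclic loess called 5, 9, 6 and 4 in these groups, 3 chaperonin subunits against 1, and 1 stress factor against 2. Quantile normalization called 4 J proteins. The ordinary t-test and Welch's test called 1 stress factor, and Welch's test 2 heat shock proteins against 4. Ddit3, Hsph1, Derl1 and Ppic were not called by the ordinary t-test (adjusted p = 0.0544, 0.0747, 0.0681 and 0.0723), nor by Welch's test, which also did not call Pdia3, Fkbpl and Hsf2. Leaving out rats gave 1 to 2 stress factors and 0 to 1 Bag members. Other pathway genes higher were 5 by Welch's test and 6 to 14 with a rat left out, against 10. Those lower were 2 with array weights or quantile normalization, 1 with median centring or with clusters under the median left out, and 0 to 1 with a rat left out, against 0. Hspe1, which was not called, changed sign with array weights (0.063) and cyclic loess (0.080), and ranged from -0.19 to 0.044 with a rat left out. It was above 0 without rat 195 (0.032), 196 (0.044) or 218 (0.041). Fewer clusters or rats entered some of these fits, and otherwise the cause was not tested. No paired analysis was possible because the groups share no replicate numbers. With 4 arrays a group, members that were not called are not shown to be unchanged.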
